A study of Mus musculus with 49 samples.

Results

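Budding organoids grown from Cdx2-transduced dedifferentiated hepatocytes (dediHep-BOs) were compared with spherical organoids grown from dedifferentiated hepatocytes (dediHep-SOs), with 3 libraries in each group. These are all the libraries with those labels, 6 of the 49 RNA-seq libraries in the series. Dedifferentiated hepatocytes (dediHeps) are expandable progenitor-like cells that arise when hepatocytes of 10-week-old C57BL/6J wild-type mice are kept in monolayer culture with EGF. Both groups started from dediHeps embedded in Matrigel. The dediHep-SOs are labelled only as organoid-cultured dediHeps, and the study grew such spheres in WCENR, a medium with Wnt3a, the GSK3 inhibitor CHIR99021, EGF, Noggin and R-spondin1. The dediHep-BOs carried a retrovirus with Cdx2 and GFP, and the study passaged such cells serially in WCENR and then moved them to ENR, which lacks Wnt3a and CHIR99021. The labels give neither the passage nor the medium of these libraries, so any difference in these cannot be told apart from Cdx2 transduction. Each dediHep-SO label carries a different date-like code, which also stands in the label of a monolayer dediHep library. The dediHep-BO labels carry only a number. Neither kind of label says whether the replicates came from separate animals, so the p-values measure the spread between these libraries. In dediHep-BOs that spread may be in part technical, though replicate 3 differed from replicates 1 and 2 in Y-linked transcripts, as given below. Spherical organoids of fetal intestinal progenitors from E13.5 embryos (FIPC-SOs, 3 libraries) and budding organoids of intestinal stem cells from crypts of 10-week-old mice (ISC-BOs, 4 libraries) served as the gut counterpart. The fetal and adult gut cultures differ in the age of their source as well as in shape.

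Cdx2 is the homeobox factor that specifies intestinal identity in the posterior endoderm and keeps it in the adult epithelium, where it acts on enhancers and promoters of enterocyte genes with Hnf4 and Gata factors. Fetal intestinal progenitors grow as smooth spheres that hold few differentiated cells and express Ly6a, Clu and other genes that return during repair of the adult gut. Adult stem cells form organoids with crypt-like buds in which Paneth cells supply Wnt3 and Notch ligands, while enterocytes, goblet cells and enteroendocrine cells fill the villus-like part. The comparison asks which genes were gained and lost between the spherical and the budding state of organoids of liver origin, beyond 7 adult Cdx2 target genes named by the study.

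The libraries were not alike within each group. Summed counts of the Y-linked genes Ddx3y, Eif2s3y, Kdm5d and Uty were 623, 415 and 1 in dediHep-SO replicates 1, 2 and 3, and 0, 0 and 622 in the dediHep-BO replicates. Xist had 0 counts in the 3 dediHep-SO libraries and 21, 1 and 0 counts in the dediHep-BO libraries. Thus dediHep-SO replicate 3 and dediHep-BO replicates 1 and 2 had almost no Y-linked transcripts, while the other libraries had at least 415. The study describes its hepatocytes as taken from male livers, and the source of the split was not tested. The Y-linked genes and Xist, like the fibroblast collagens and Cdx1 below, were named after their values were seen. Replicate 3 of the dediHep-SOs also stood apart in its whole profile, with Pearson r of log2 CPM (counts scaled to the library total) of 0.867 and 0.894 with replicates 1 and 2, which correlated with each other at 0.972. It lay closer to the dediHep-BOs (0.732 to 0.764) than the other spheres did (0.599 to 0.677). The dediHep-BO libraries correlated with each other at 0.938 to 0.963. The part of the Y-linked split in any gene's difference was examined with a term for it, and the counts with that term stand beside the main counts.

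Transcripts of fibroblasts moved with the same split in the dediHep-BOs. Summed CPM of 15 fibroblast genes was 1.02 to 4.52 in dediHep-SOs, 348 and 360 in dediHep-BO replicates 1 and 2, and 6.55 in replicate 3. Col1a1 had 113, 156 and 1 counts, Col1a2 173, 288 and 0 counts and Col3a1 282, 210 and 4 counts in the dediHep-BO libraries, against at most 2 counts in any dediHep-SO library. Pdgfra, a defining fibroblast receptor, had at most 2 counts in every library. None of the 15 genes passed the filter on low counts, which asks for expression in 3 libraries. With dediHep-SO replicate 1, 2 or 3 or dediHep-BO replicate 3 left out, 4, 3, 5 and 5 of them were called higher. Summed CPM of 13 endothelial genes moved the other way, at 193, 124 and 88.0 in dediHep-SOs and 31.9, 25.8 and 42.6 in dediHep-BOs. Of the 3 tested, Flt1, a VEGF receptor with 421, 163 and 83 counts in dediHep-SOs and 1, 2 and 1 in dediHep-BOs, was called lower (log2 fold change -7.00, SE 0.65, adjusted p = 8.07e-05), while the defining genes Pecam1 and Cdh5 had at most 3 counts per library. The part of both lists in the other results was not tested. The leukocyte gene Ptprc had at most 2 counts, and albumin, the main hepatocyte secretory protein, 0 in all 6. In these bulk libraries, more cells of a type and more RNA per cell cannot be told apart. Depth was 1856644 to 2931078 UMI counts per library, with 15502 to 16748 genes detected, 1.26 to 1.93% mitochondrial and 5.3 to 5.88% ribosomal protein counts.

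**Figure D1:**
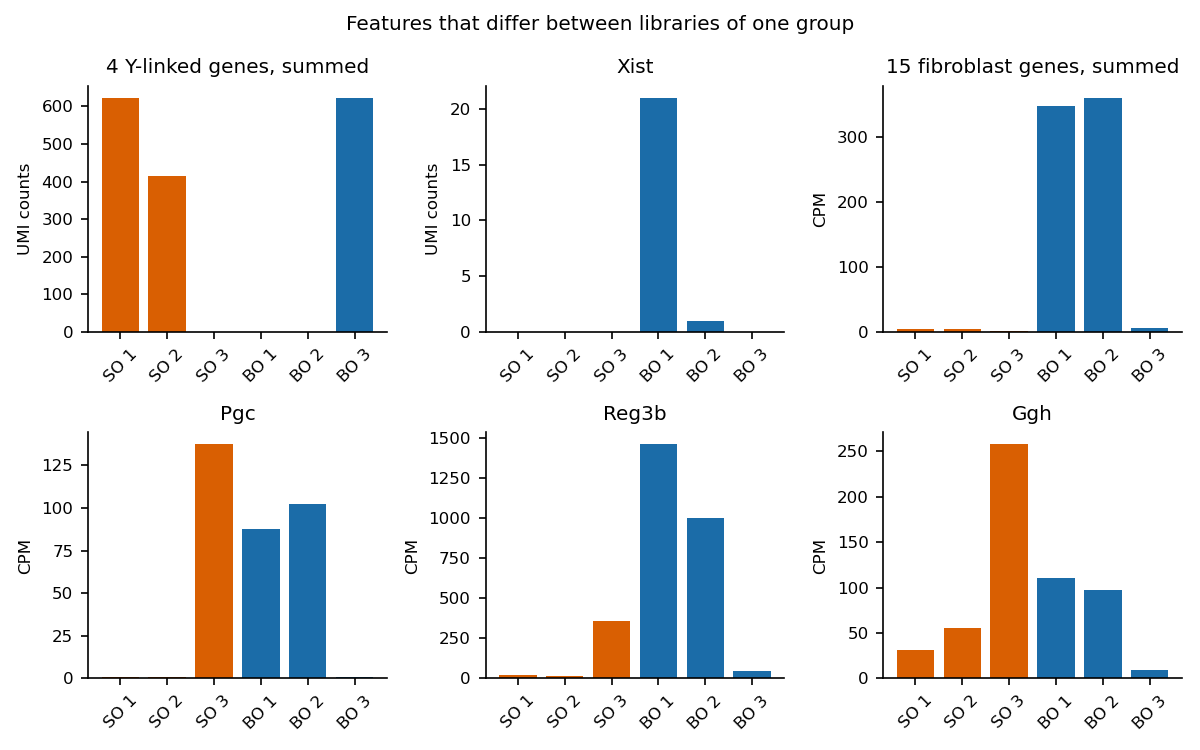
Features that split libraries within a group, as UMI counts or TMM-normalised CPM on linear axes from 0 (SO, dediHep-SO; BO, dediHep-BO; 1 to 3, replicate). Y-linked counts are near 0 in SO 3, BO 1 and BO 2, collagen-rich fibroblast genes are high only in BO 1 and BO 2 among these libraries, and Pgc, Reg3b and Ggh are higher in the libraries without Y-linked counts than in the others.

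Values below are CPM after TMM scaling, given for replicates 1, 2 and 3 in that order, and fold changes are dediHep-BO over dediHep-SO. Tests are edgeR quasi-likelihood tests with Benjamini-Hochberg adjustment over all genes tested, and a gene was called where adjusted p was under 0.1 and the log2 fold change was beyond 2 in either direction. Where a group had no count, the fold is a bound against 3 counts summed over that group. Where it had 1 to 3 counts, the ratio of the higher to the lower group is given with its exact counting interval. Such bounds and intervals cover counting error only. A gene at or near 0 in 1 group passes the filter only through the other group, so it can be called in 1 direction only. Where leaving out a library leaves a group without a count, the fitted fold depends on the prior count, a small count added in the fit. This holds below for Alpi, Slc51a, Aqp4 and Smoc2 without dediHep-SO replicate 3 and for Ctse without dediHep-BO replicate 2. In every list below with 0 calls in a direction by edgeR but calls in the other, DESeq2 also called 0 in that direction, and 0 to 5 members had an unadjusted p under 0.05 there.

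Cdx2 itself was present in both groups. It measured 94.8, 75.6 and 116 CPM in dediHep-SOs and 192, 226 and 386 CPM in dediHep-BOs, so that the groups did not overlap (log2 fold change 1.49, SE 0.32, adjusted p = 0.00813). This is below the fold threshold, and the difference counts only transcripts whose 3' ends were read, so a retroviral transcript need not be included. Cdx1, its homologue with a like role in the gut, was at 0, 0 and 0.509 CPM in dediHep-SOs and 104, 90.6 and 23.4 CPM in dediHep-BOs (log2 fold change 8.44, SE 0.93, adjusted p = 0.00021), so a gene at or near 0 in every sphere was present in every budding culture. The mouse Cdx2 gene lies on the minus strand of chromosome 5 (GRCm38 chr5:147300805-147307270). On a scale set over all 49 libraries, Cdx2 was 47.4 ± 49.5 CPM in monolayer dediHeps (SD, n = 5), 86.3 ± 16.2 CPM in dediHep-SOs (n = 3), 245 ± 96.9 CPM in dediHep-BOs (n = 3), 333 ± 63.5 CPM in FIPC-SOs (n = 3) and 345 ± 24.9 CPM in ISC-BOs (n = 4). The order of these means placed dediHep-BOs between the spheres of liver origin and both gut cultures, and the ranges of dediHep-BOs (177 to 356) and of each gut culture overlapped.

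Of 11301 genes tested, 1275 were called between dediHep-BOs and dediHep-SOs (11.3%). Of these, 633 were higher (5.60%) and 642 lower (5.68%) in dediHep-BOs, and at any fold 2168 genes were higher and 2408 lower at adjusted p under 0.1. The median log2 fold change over all genes tested was 0. Without dediHep-SO replicate 3, 2108 genes were called (1246 higher and 862 lower), and these held 616 of the 633 higher and 620 of the 642 lower genes. With the Y-linked split as a term, a setting chosen after seeing the data, 1195 were called, with 581 of the 633 and 556 of the 642 kept. The plot of fold change against level shows calls in both directions up to a log2 mean CPM of about 10.

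**Figure D2:**
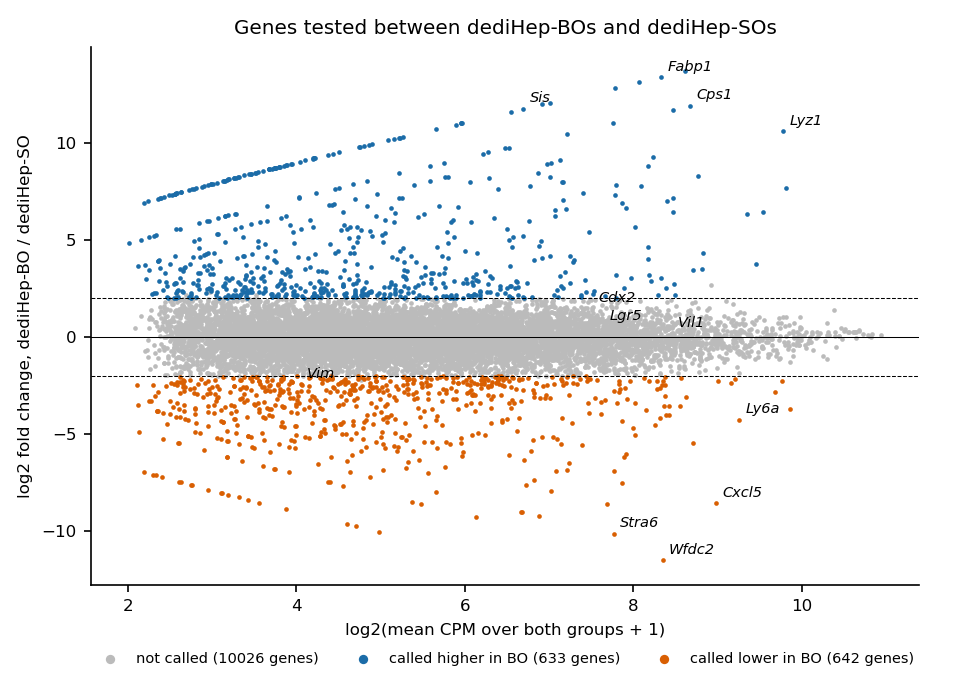
Each point is a gene tested, with its log2 of mean CPM + 1 over both groups on the x axis and its fitted log2 fold change (dediHep-BO over dediHep-SO) on the y axis. Dashed lines mark the fold threshold of 2 on the log2 scale. The 633 genes called higher and the 642 called lower span most of the range of levels, while Cdx2, Lgr5 and Vil1 lie among the genes not called; the slanted rows at the edges are genes without a count in a group, whose fitted fold depends on the prior count.

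The 7 adult Cdx2 targets set the scale for the rest. Fabp1 and Fabp2, which carry fatty acids in enterocytes, had 0 counts in every dediHep-SO library and measured 707, 419.9 and 798 CPM and 553, 349 and 699 CPM in dediHep-BOs. These were at least 1432-fold higher (adjusted p = 2.13e-05) and at least 1195-fold higher (adjusted p = 2.29e-05). Sis, the brush-border sucrase-isomaltase, went from 0 in every sphere to 339, 154 and 123 CPM (at least 446-fold higher, adjusted p = 9.91e-05). Alpi, intestinal alkaline phosphatase, was at 0, 0 and 12.2 CPM in dediHep-SOs and 479, 516 and 386 CPM in dediHep-BOs (log2 fold change 6.89, SE 0.99, adjusted p = 0.000882). The only sphere with Alpi was replicate 3. Without it no sphere count was left, so the fitted log2 fold change of 12.97 depends on the prior count. Mttp, which loads lipid onto apolipoprotein B, and Mep1b, a brush-border peptidase, also rose, by log2 fold changes of 6.57 (adjusted p = 2.23e-05) and 7.17 (adjusted p = 8.71e-05). Lct, the milk sugar hydrolase, was at 0 in the spheres and 10.3, 4.38 and 1.4 CPM in dediHep-BOs and did not pass the filter. The 6 tested targets were all called higher, but 3 of them had no sphere count and could be called only in that direction.

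The 250 bases before the transcription start of targets and of the Paneth cell gene Lyz1 are shown because these genes were at or near 0 in most spheres and Cdx factors bind AT-rich sites. Sequences are from RefSeq on GRCm38.p6, written 5' to 3' on the coding strand up to the last base before the start, with capitals for the letters TTTATG or TTTATT, a core of the Cdx site, on either strand.
Fabp2, plus strand, chr3:122894822-122895071: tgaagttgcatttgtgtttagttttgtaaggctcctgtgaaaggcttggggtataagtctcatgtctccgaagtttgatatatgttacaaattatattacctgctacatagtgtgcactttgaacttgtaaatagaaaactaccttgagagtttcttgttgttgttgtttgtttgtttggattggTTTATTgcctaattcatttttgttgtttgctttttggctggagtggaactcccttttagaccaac
Sis, minus strand, chr3:72967864-72968113: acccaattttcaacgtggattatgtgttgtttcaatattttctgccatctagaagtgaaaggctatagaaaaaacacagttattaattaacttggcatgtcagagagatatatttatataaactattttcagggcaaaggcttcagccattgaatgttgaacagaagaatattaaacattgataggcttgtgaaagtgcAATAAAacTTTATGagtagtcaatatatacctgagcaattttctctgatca
Lct, minus strand, chr1:128328319-128328568: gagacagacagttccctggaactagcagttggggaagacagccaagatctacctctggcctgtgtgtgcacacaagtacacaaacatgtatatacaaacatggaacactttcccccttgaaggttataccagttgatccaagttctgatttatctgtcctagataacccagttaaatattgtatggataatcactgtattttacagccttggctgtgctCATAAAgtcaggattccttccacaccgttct
Alpi, minus strand, chr1:87101607-87101856: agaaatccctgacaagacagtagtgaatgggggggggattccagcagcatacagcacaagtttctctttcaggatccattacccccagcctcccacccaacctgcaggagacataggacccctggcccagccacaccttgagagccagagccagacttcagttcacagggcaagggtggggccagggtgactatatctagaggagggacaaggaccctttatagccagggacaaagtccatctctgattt
Lyz1, minus strand, chr10:117292869-117293118: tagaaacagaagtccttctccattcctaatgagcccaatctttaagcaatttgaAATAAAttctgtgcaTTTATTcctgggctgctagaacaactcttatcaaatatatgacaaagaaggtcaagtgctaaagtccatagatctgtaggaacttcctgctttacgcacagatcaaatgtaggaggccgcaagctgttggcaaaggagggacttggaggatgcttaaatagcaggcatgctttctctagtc
Counted back from the start, the Cdx letters began at base -65 in Fabp2, at -51 and -43 in Sis, at -31 in Lct and at -196 and -181 in Lyz1. The Alpi window held none of them and 1 match to the Hnf4 letters CAAAGTCCA, which stand near its 3' end. Of windows not shown, that of Fabp1 held the Cdx letters 3 times, those of Mttp and Ang4 held none, and of 4 windows of Stra6, a gene called lower, 1 held them 3 times. These are matches of letters and not binding sites.

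Across all genes with a RefSeq window, the Cdx letters stood in 24.7% of 603 windows of genes called higher, in 17.8% of 646 windows of genes called lower, in 14.8% of 9152 windows of genes not called and in 25.5% of 32851 windows in the whole table. The share for genes called higher was thus above that of the other genes tested and near that of all windows. CAAAGTCCA stood in 2.32% of windows of genes called higher, 0.619% of those called lower and 0.251% of those not called, against 0.384% of all windows. AGATAA of the Gata factors stood in 9.62%, 5.42% and 5.4%, against 9.99%. GGAATG of the Tead factors, through which Yap acts, was in 11.9%, 15.5% and 10.3%, against 12.6%, and TGANTCA of AP-1 in 9.62%, 8.82% and 4.03%, against 6.75%. Both strands were searched and a gene can have several windows, so these shares are descriptions without a test.

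Absorptive genes were gained broadly. Of 26 brush-border and digestive genes, 19 were tested, 12 were called higher and 1 lower (median log2 fold change 2.29). The membrane peptidase Mme went from 0 in every sphere to 74.1, 44.8 and 36.5 CPM (at least 114-fold higher, adjusted p = 0.000134). Mep1a, the partner subunit of Mep1b, rose from 0.347, 0 and 2.54 to 72.5, 52.6 and 64.5 CPM (log2 fold change 6.03, SE 0.65, adjusted p = 0.000179). The microvillus motor Myo1a rose from 1.39, 0.54 and 0.509 to 56.8, 34.1 and 39.3 CPM (log2 fold change 5.54, SE 0.49, adjusted p = 7.45e-05). In each of these genes the lowest budding culture was far above the highest sphere. Ace was the member that fell, from 10.1, 9.18 and 15.3 to 0.541, 1.95 and 1.4 CPM (log2 fold change -3.06, SE 0.53, adjusted p = 0.00245). Vil1, the actin bundler of microvilli, stood at 337, 297 and 347 CPM in dediHep-SOs and 371, 387 and 365 CPM in dediHep-BOs (log2 fold change 0.20, SE 0.21, adjusted p = 0.491). The actin regulator Eps8l3 was at 325, 253 and 162 and 227, 277 and 249.7 CPM (log2 fold change 0.03, SE 0.28, adjusted p = 0.945), so these structural members were already expressed in the spheres.

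Of 26 transporters, 21 were tested, 15 were called higher and 0 lower (median 4.15). Slc5a1, the sodium-glucose cotransporter, rose from 0, 0 and 1.53 to 297, 246 and 228 CPM (ratio 570.3, counting interval 195 to 2769, adjusted p = 2.44e-05). Slc2a2, the basolateral sugar carrier, rose from 0.347, 1.08 and 0 to 100.1, 42.4 and 74.4 CPM (ratio 159, counting interval 54.1 to 776, adjusted p = 7.75e-05). Slc3a1, a subunit of the cystine transporter, went from 0.347, 0.54 and 0.509 to 72.5, 42.9 and 49.6 CPM (ratio 121, counting interval 41.1 to 591, adjusted p = 2.49e-05). Slc11a2, the apical iron transporter, was at 163, 148 and 116 and 174, 143 and 133 CPM (log2 fold change 0.08, SE 0.25, adjusted p = 0.84). The calcium pump Atp2b1 was at 101, 107 and 201 and 143, 169 and 185 CPM (log2 fold change 0.29, SE 0.31, adjusted p = 0.51), with overlapping groups in both.

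Of 22 genes for fat absorption, 19 were tested, 9 were called higher and 0 lower (median 1.88). Apoa4, an apolipoprotein of chylomicrons, had 0, 0 and 0.509 CPM in the spheres and 1161, 450.1 and 509.7 CPM in the budding cultures (ratio 4613, counting interval 827 to 182200, adjusted p = 2.13e-05). Npc1l1, which takes up cholesterol, rose from 0.347, 0.54 and 1.02 to 64.4, 69.2 and 67.8 CPM (log2 fold change 6.67, SE 0.44, adjusted p = 2.13e-05). Abcg5, which exports it, rose from 0, 0.54 and 0 to 107, 85.2 and 124 CPM (ratio 706, counting interval 126 to 27940, adjusted p = 2.23e-05). Creb3l3, a membrane-bound factor that activates apolipoprotein genes, rose from 0.695, 0 and 2.54 to 331, 264 and 255 CPM (log2 fold change 7.99, SE 0.58, adjusted p = 2.4e-05). In each of these 4 genes the groups were far apart. Acsl5, which activates fatty acids, and Sar1b, which buds chylomicron carriers, were not called, with log2 fold changes of -0.19 (adjusted p = 0.601) and 0.20 (adjusted p = 0.555).

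Enzymes for drugs, steroids and vitamin A had the highest share of calls among lists with more than 10 tested members. Of 28 members, 25 were tested, 23 were called higher and 0 lower (median 6.43). Cyp4f14, a lipid hydroxylase, measured 2.43, 2.16 and 3.56 CPM in dediHep-SOs and 678, 287 and 344 CPM in dediHep-BOs (log2 fold change 7.31, SE 0.48, adjusted p = 2.13e-05). Cyp2c66 went from 0, 0 and 0.509 to 146, 128 and 167 CPM (ratio 987, counting interval 177 to 39020, adjusted p = 2.13e-05). The carboxylesterase Ces2a rose from 0.347, 0 and 1.02 to 308, 330.3 and 112 CPM (ratio 549.6, counting interval 188 to 2668, adjusted p = 4.51e-05). Its relative Ces2e rose from 7.99, 15.1 and 28.5 to 1493, 1519 and 1388 CPM (log2 fold change 6.43, SE 0.44, adjusted p = 2.23e-05). All 4 were separated without overlap. The exceptions were Aldh1a1, which makes retinoic acid, at 331, 276 and 368 and 818, 509.6 and 343 CPM (log2 fold change 0.78, SE 0.31, adjusted p = 0.0869), and the glutathione transferase Gsta4 at 652, 704 and 464 and 327, 283 and 225 CPM (log2 fold change -1.12, SE 0.25, adjusted p = 0.00971).

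Regional genes were mixed. Of 13 ileal genes, 7 were tested and 5 called higher. Muc3, a membrane mucin, rose from 0, 0 and 0.509 to 207, 129 and 208 CPM (ratio 1211, counting interval 217 to 47870, adjusted p = 2.13e-05). Slc51a, a basolateral bile acid exporter, rose from 0, 0 and 2.04 to 24.4, 26.3 and 51.4 CPM (log2 fold change 5.67, SE 0.82, adjusted p = 0.000914; 9.22 without dediHep-SO replicate 3). Slc10a2, the apical bile acid transporter of the ileum, was at 3.82, 7.56 and 9.16 and 3.79, 6.33 and 10.8 CPM (log2 fold change 0.07, SE 0.51, adjusted p = 0.928), with overlapping groups. Of 20 colonic genes, 6 were tested and 3 called higher, or 6 higher and 1 lower without dediHep-SO replicate 3. Among them the anion exchanger Slc26a3 rose from 0.347, 0 and 0 to 45.5, 40.4 and 80 CPM (ratio 375, counting interval 66.8 to 14850, adjusted p = 5.9e-05). The water channel Aqp4 rose from 0, 0 and 7.12 to 158, 166 and 149 CPM (log2 fold change 6.13, SE 0.90, adjusted p = 0.000983; 11.43 without that library). The 35 Hox genes listed, which mark position along the gut, were too low to test between dediHep-BOs and dediHep-SOs. Together they had 24 counts in the 3 dediHep-SO libraries and 49 in the 3 dediHep-BO libraries, against 416 in the 3 FIPC-SO and 96 in the 4 ISC-BO libraries. Without the filter on low counts, 3 were called higher. For the difference from gut organoids given below, 3 were tested and 2 called larger.

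Secretory genes were the other main gain. Of 26 Paneth cell genes, 16 were tested, 13 were called higher and 0 lower, with a median of 9.36, or 6.77 with genes without a count at their bound. Of those 13, 7 had no sphere count and could be called only higher. Lyz1, the lysozyme of Paneth cells, was at 0, 0 and 3.56 CPM in dediHep-SOs and 2024, 1821 and 1429 CPM in dediHep-BOs (log2 fold change 10.60, SE 0.75, adjusted p = 2.3e-05). Its counts in dediHep-BOs (3740, 3738 and 3056) neared the highest value that the number of molecular identifier sequences allows, so its level may be understated. Lyz1 also shares near-identical sequence with Lyz2, as the alpha-defensins do among themselves, so counts may be split between copies. Ang4, an antimicrobial ribonuclease, rose from 0, 0 and 0.509 to 488, 504 and 301 CPM (ratio 2860, counting interval 513 to 113000, adjusted p = 1.98e-05). The lectin Itln1 rose from 18.4, 15.1 and 12.7 to 1577, 1617 and 666 CPM (log2 fold change 6.37, SE 0.42, adjusted p = 2.13e-05). The lipase Pnliprp2 rose from 0.347, 0 and 0 to 406, 374 and 107 CPM (ratio 1937, counting interval 347 to 76560, adjusted p = 5.22e-05). In all 4 genes the lowest dediHep-BO value was that of replicate 3, which was still above every sphere. Mmp7, which activates defensins, was expressed in both groups at 1396, 2093 and 1646 and 920.4, 924 and 548 CPM (log2 fold change -1.10, SE 0.26, adjusted p = 0.0124). Its counts in the spheres (4018, 3878 and 3235) also neared that highest value, and with the correction for shared identifiers it was called lower, at a log2 fold change of -2.28 (adjusted p = 0.00138). The sialoglycoprotein Cd24a was at 976, 1254 and 1303 and 1078, 963 and 859.5 CPM (log2 fold change -0.28, SE 0.20, adjusted p = 0.314). Without dediHep-SO replicate 2, 20 Paneth cell genes were called higher and 0 lower, and without dediHep-SO replicate 3, 20 higher and 1 lower.

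Of 26 goblet cell genes, 22 were tested, 14 were called higher and 0 lower (median 2.8). Muc2, the gel-forming mucin, was at 22.9, 32.4 and 3.56 CPM in the spheres and 343, 278 and 252 CPM in the budding cultures (log2 fold change 3.89, SE 0.58, adjusted p = 0.0011). Atoh1, the factor that commits cells to the secretory lineage, rose from 0.695, 1.08 and 1.02 to 30.8, 44.3 and 61.3 CPM (log2 fold change 5.57, SE 0.48, adjusted p = 6.61e-05). Guca2a, the hormone guanylin, rose from 0.347, 0.54 and 2.54 to 171, 102 and 81.4 CPM (log2 fold change 6.71, SE 0.61, adjusted p = 7.75e-05). Muc13, a membrane mucin, rose from 28.1, 24.8 and 75.8 to 810, 988 and 801 CPM (log2 fold change 4.34, SE 0.44, adjusted p = 0.00012). The spheres therefore held some Muc2 and Muc13 and almost no Atoh1 or Guca2a. Muc1 was at 178, 200.2 and 215 and 70.9, 112 and 3.74 CPM and was not called (log2 fold change -1.67, SE 0.76, adjusted p = 0.119); with the Y-linked term it was called lower, at -2.91.

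Of 35 enteroendocrine genes, only 9 passed the filter, of which 8 were called higher and 1 lower. Of those 8, 5 had no sphere count and could be called only higher. The granule protein Chga rose from 0, 0 and 0.509 to 188, 226 and 45.4 CPM (ratio 1009, counting interval 181 to 39900, adjusted p = 0.000126). The related Chgb rose from 0.347, 0 and 0 to 219.7, 249 and 60.8 CPM (ratio 1161, counting interval 208 to 45900, adjusted p = 7.75e-05). The prohormone convertase Pcsk1 was at 0 in the spheres and 19.5, 40.9 and 14.5 CPM in dediHep-BOs (at least 55.8-fold higher, adjusted p = 0.000617). For these 3 genes replicate 3 was the lowest budding culture. Reg4 rose from 0, 0 and 1.53 to 99, 96 and 197 CPM (ratio 296, counting interval 101 to 1440, adjusted p = 8.99e-05), with replicate 3 the highest. Cpe, a carboxypeptidase that also trims prohormones, fell from 594, 612 and 116 to 17.3, 28.7 and 21 CPM (log2 fold change -4.29, SE 0.59, adjusted p = 0.000694). Of 22 tuft cell genes, 17 were too low to test, 3 were called lower and 0 higher, and without the filter on low counts 3 were called lower and 5 higher. Dclk1, a kinase that marks tuft cells, fell from 172, 198 and 122 to 7.58, 13.6 and 2.34 CPM (log2 fold change -4.38, SE 0.52, adjusted p = 0.00032). The eicosanoid enzyme Ltc4s fell from 41.7, 40.5 and 16.3 to 2.16, 0 and 2.34 CPM (log2 fold change -4.41, SE 0.70, adjusted p = 0.00151). Another, Ptgs1, fell from 37.2, 32.9 and 15.3 to 1.08, 1.46 and 0.935 CPM (log2 fold change -4.55, SE 0.53, adjusted p = 0.000281). The tuft cell factor Pou2f3 and channel Trpm5, named after their values were seen, had at most 6 counts in any of the 6 libraries.

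**Figure D3:**
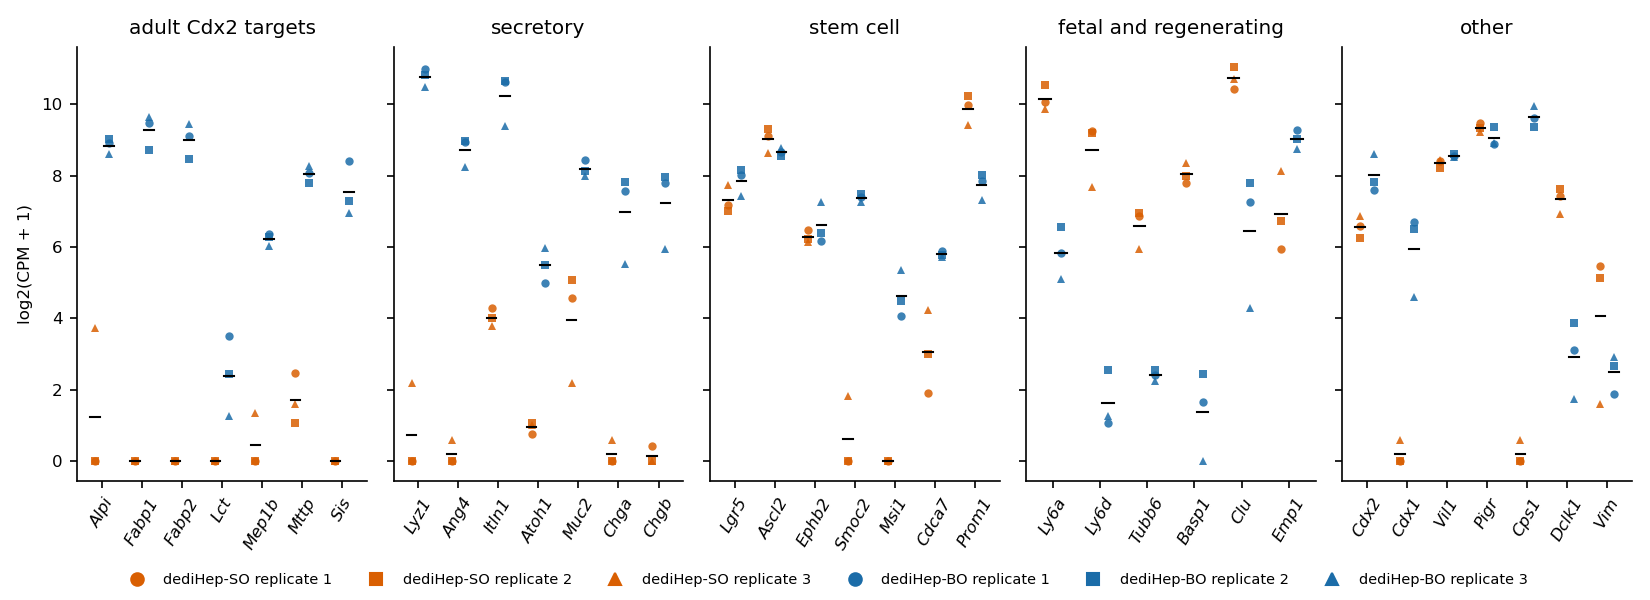
Log2(CPM + 1) of selected members in each library, with dediHep-SO in orange and dediHep-BO in blue, marker shape for the replicate and a black bar for the mean of 3. Adult targets and secretory genes are at or near 0 in most spheres, with some Itln1 and Muc2, and higher in every budding culture, Lgr5, Ascl2, Ephb2, Vil1 and Pigr have like levels in both, and Ly6a, Ly6d, Tubb6, Basp1, Clu and Dclk1 are lower in all 3 budding cultures.

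Of 21 intestinal stem cell genes, 18 were tested, 5 were called higher and 1 lower (median 0.63). Lgr5, the R-spondin receptor of crypt-base stem cells, was at 143, 128 and 212 CPM in dediHep-SOs and 256, 282 and 169.8 CPM in dediHep-BOs (log2 fold change 0.56, SE 0.30, adjusted p = 0.176). Ascl2, their Wnt-driven factor, was at 551, 630.4 and 399 and 407, 371 and 439 CPM (log2 fold change -0.37, SE 0.23, adjusted p = 0.246). Ephb2 was at 87.5, 73.9 and 69.7 and 70.9, 82.8 and 152 CPM (log2 fold change 0.41, SE 0.33, adjusted p = 0.376). These 3 markers were present in every library of both groups and were not called. Smoc2, a matricellular stem cell protein, rose from 0, 0 and 2.54 to 167, 177 and 151 CPM (log2 fold change 7.65, SE 0.73, adjusted p = 8.99e-05; 11.49 without dediHep-SO replicate 3), and the RNA-binding protein Msi1 from 0 to 15.7, 21.4 and 40.2 CPM (at least 58.8-fold higher, adjusted p = 0.000462). Cdca7, a chromatin regulator, rose from 2.78, 7.02 and 17.8 to 58.4, 53.6 and 51.9 CPM (log2 fold change 2.60, SE 0.54, adjusted p = 0.00656). Rgmb was called higher (log2 fold change 2.64, SE 0.81, adjusted p = 0.0357), but not without dediHep-SO replicate 1 (adjusted p = 0.114) or dediHep-BO replicate 1 (adjusted p = 0.135), and at 4.71 without dediHep-SO replicate 3. Prom1, a membrane protein that bile duct cells share, fell from 1006, 1192 and 688 to 231, 256 and 158 CPM (log2 fold change -2.16, SE 0.28, adjusted p = 0.000533), with values just under the fold threshold without dediHep-SO replicate 2 (-1.98) or dediHep-BO replicate 3 (-1.93). Olfm4 was at 7.29, 1.08 and 3.56 CPM in the spheres and 0.541, 1.46 and 0 CPM in the budding cultures, too low to test. Sox9 was at 631, 1041 and 909.9 and 438, 482 and 349.8 CPM (log2 fold change -1.02, SE 0.25, adjusted p = 0.0145).

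Signals that the niche supplies differed gene by gene. Of 26 Wnt feedback and target genes, 17 were tested, 3 were called higher and 1 lower (median 0.25). Wnt3, the ligand made by Paneth cells, rose from 0.347, 0 and 0 to 8.66, 6.82 and 8.42 CPM (ratio 53.2, counting interval 9.11 to 2145, adjusted p = 0.000775). Its receptor Fzd5 rose from 8.34, 1.08 and 25.4 to 80.6, 77.5 and 63.1 CPM (log2 fold change 2.67, SE 0.68, adjusted p = 0.0177). The ligands Wnt7b and Wnt10a were among the 12 genes with the smallest p that fell. Wnt7b went from 304, 229 and 165 to 0, 0.487 and 0.468 CPM (ratio 732, counting interval 202 to 6048, adjusted p = 2.13e-05). Wnt10a went from 85.8, 72.3 and 96.7 to 0.541, 0.974 and 1.4 CPM (log2 fold change -6.34, SE 0.42, adjusted p = 2.13e-05). Wnt6 fell as well (log2 fold change -4.61, SE 0.81, adjusted p = 0.00274). The feedback gene Nkd1 rose from 1.04, 1.08 and 0 to 21.6, 19 and 25.7 CPM (log2 fold change 4.80, SE 0.59, adjusted p = 0.000356). Cd44 and Sox4, targets with high levels, were at log2 fold changes of -0.72 (adjusted p = 0.0382) and -0.14 (adjusted p = 0.724). Of the Wnt ligands named here, Wnt7b, Wnt10a and Wnt6 were higher in the spheres and Wnt3 in the budding cultures, while Cd44 and Sox4 were not called.

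Of 19 Notch genes, 12 were tested, with 2 higher and 1 lower. The ligand Dll1 rose from 0.695, 0.54 and 1.53 to 15.2, 11.7 and 9.35 CPM (log2 fold change 3.65, SE 0.53, adjusted p = 0.000914). The ligand Dll4 rose from 1.39, 0.54 and 4.58 to 21.6, 14.6 and 18.7 CPM (log2 fold change 3.07, SE 0.58, adjusted p = 0.00401). The receptor Notch3 fell from 33.7, 20 and 10.7 to 0.541, 0 and 1.4 CPM (log2 fold change -4.92, SE 0.75, adjusted p = 0.00123). The target Hes1 was at 27.4, 37.8 and 149.6 and 243, 146 and 116 CPM (log2 fold change 1.24, SE 0.58, adjusted p = 0.132), and without dediHep-SO replicate 3 it was called higher at 2.42 (adjusted p = 0.000177). Of 26 EGF family genes, 20 were tested: the ligand Areg (log2 fold change 2.33, SE 0.49, adjusted p = 0.00675) and the receptor inhibitor Lrig3 (at least 37.7-fold higher, adjusted p = 0.00365) were called higher, and the ligand Hbegf lower (log2 fold change -2.26, SE 0.33, adjusted p = 0.000909). Of 26 BMP and hedgehog genes, 15 were tested: Bmp3 was called higher (at least 53.2-fold higher, adjusted p = 0.00119), and Bmp4 (log2 fold change -5.10, SE 0.73, adjusted p = 0.000873) and the hedgehog ligand Dhh (ratio 117, counting interval 20.7 to 4666, adjusted p = 0.000338) lower. Without dediHep-SO replicate 3 the BMP list had 4 higher and 2 lower. Of the 9 calls in these 3 pathways, 7 were of ligands. The share of ligands among the members tested was not counted, so this is no result about ligands.

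Of 38 intestinal transcription factors, 32 were tested, 9 were called higher and 0 lower (median 1.58). Vdr, the vitamin D receptor, rose from 60.8, 70.7 and 86.5 to 523, 931 and 1020 CPM (log2 fold change 3.51, SE 0.31, adjusted p = 7.73e-05). Hnf4g, a nuclear receptor of enterocytes, rose from 2.43, 0.54 and 0.509 to 60.1, 48.2 and 30.9 CPM (log2 fold change 5.10, SE 0.56, adjusted p = 0.000201). Vdr was thus present in the spheres, while Hnf4g, like Atoh1, Creb3l3 and Cdx1 above, was near 0 there. Klf4, a factor of goblet and differentiated cells, was at 63.6, 70.7 and 75.8 and 106, 104 and 96.3 CPM (log2 fold change 0.55, SE 0.25, adjusted p = 0.126). Klf5, a crypt factor, was at 232, 294 and 139.9 and 123, 119 and 153 CPM (log2 fold change -0.75, SE 0.30, adjusted p = 0.089). Onecut2 was at 509, 527 and 436 and 561, 630.4 and 429 CPM (log2 fold change 0.14, SE 0.22, adjusted p = 0.654). Ehf measured 579.8, 847 and 393 and 298, 340.5 and 191 CPM (log2 fold change -1.13, SE 0.32, adjusted p = 0.0282). These 4 factors were expressed in every library and were not called. Without dediHep-SO replicate 3, 13 factors were called higher.

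Genes of fetal and regenerating intestine were the main loss. Of 30, 28 were tested, 17 were called lower and 2 higher (median -3.4). Ly6a, which marks fetal and repairing epithelium, measured 1079, 1476 and 929.7 CPM in dediHep-SOs and 56.3, 93.5 and 33.7 CPM in dediHep-BOs (log2 fold change -4.24, SE 0.39, adjusted p = 8.05e-05). Ly6d fell from 603, 580.2 and 206 to 1.08, 4.87 and 1.4 CPM (log2 fold change -7.51, SE 0.63, adjusted p = 5.9e-05). The membrane protein Basp1 fell from 223, 254 and 324 to 2.16, 4.38 and 0 CPM (log2 fold change -6.91, SE 0.63, adjusted p = 7.75e-05). The tubulin Tubb6 fell from 115, 123 and 61.1 to 4.33, 4.87 and 3.74 CPM (log2 fold change -4.51, SE 0.40, adjusted p = 7.71e-05). All 3 spheres, replicate 3 included, were above all budding cultures for these genes. The 2 members that rose were Anxa10, at 1.74, 2.7 and 4.07 and 59, 64.8 and 5.61 CPM (log2 fold change 3.94, SE 0.82, adjusted p = 0.00694) with dediHep-BO replicate 3 close to the spheres, and Areg. S100a6, a calcium-binding protein, was at 1362, 1891 and 1618 and 922, 1023 and 521 CPM (log2 fold change -0.98, SE 0.27, adjusted p = 0.0241). Over the alternative settings its log2 fold change was -1.84 to -0.69, under the fold threshold in each. Emp1 was at 60.1, 106 and 279.9 and 624, 525 and 431 CPM (log2 fold change 1.83, SE 0.48, adjusted p = 0.0203) and was called higher without dediHep-SO replicate 3 (2.72, adjusted p = 2.36e-05).

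Of 22 Yap target genes, 17 were tested, 10 were called lower and 1 higher (median -2.29). Ptpn14, itself an inhibitor of Yap, fell from 47.6, 63.1 and 55 to 4.33, 5.85 and 3.27 CPM (log2 fold change -3.60, SE 0.36, adjusted p = 0.000113). The exchange factor Arhgef17 fell from 101, 106 and 102 to 22.2, 22.4 and 18.7 CPM (log2 fold change -2.29, SE 0.28, adjusted p = 0.000337). Foxf2 fell from 9.03, 13.49 and 11.2 to 0.541, 0.974 and 0.468 CPM (log2 fold change -3.96, SE 0.53, adjusted p = 0.000608). Gadd45a, a stress gene, was the member that rose (log2 fold change 2.94, SE 0.69, adjusted p = 0.0123; 4.73 without dediHep-SO replicate 3). Crim1 and Asap1 were not called, at 0.42 (adjusted p = 0.37) and -1.20 (adjusted p = 0.0346).

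Matrix and mesenchymal genes were mostly called lower as well. Of 29, 16 were tested, 10 were called lower and 0 higher (median -2.38). Fn1, fibronectin, measured 244, 182 and 376 CPM in dediHep-SOs and 15.7, 24.4 and 5.14 CPM in dediHep-BOs (log2 fold change -4.14, SE 0.52, adjusted p = 0.000409). The basement membrane chain Col4a2 fell from 78.2, 107 and 76.8 to 3.25, 2.92 and 0 CPM (log2 fold change -5.40, SE 0.61, adjusted p = 0.000247). The laminin chain Lamb1 fell from 82.7, 60.5 and 35.1 to 7.03, 4.38 and 3.74 CPM (log2 fold change -3.55, SE 0.44, adjusted p = 0.00037). The protease inhibitor Timp2 fell from 355, 496 and 253 to 13, 43.4 and 14.5 CPM (log2 fold change -3.95, SE 0.50, adjusted p = 0.000409). The fibrillar collagens went the other way in dediHep-BO replicates 1 and 2, as given above. Vim, the intermediate filament of mesenchyme, was at 43.1, 34 and 2.04 and 2.71, 5.36 and 6.55 CPM (log2 fold change -2.42, SE 0.82, adjusted p = 0.0509), with sphere replicate 3 at the level of the budding cultures. Its call was lost without dediHep-SO replicate 1 or 2 or dediHep-BO replicate 1 or 2 (adjusted p = 0.137 to 0.189) and with the Y-linked term (-1.30, adjusted p = 0.175). The laminin chain Lamb3 was not called, at a log2 fold change of -1.03 (adjusted p = 0.0193).

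Keratins and junction genes included calls in both directions. Of 17 keratins, 8 were tested, 3 were called lower and 0 higher. Krt4, of stratified epithelia, fell from 128, 121 and 164 to 0, 0.487 and 0 CPM (ratio 825, counting interval 148 to 32630, adjusted p = 2.13e-05). Krt6a fell from 26.4, 27 and 5.09 CPM to 0 in every budding culture (at least 40.9-fold lower, adjusted p = 0.00264). Krt7, of duct epithelium, fell from 908, 1089 and 878 to 204, 187 and 159.9 CPM (log2 fold change -2.38, SE 0.22, adjusted p = 8.05e-05). Krt8 and Krt18, the pair of all simple epithelia, were at -0.59 (adjusted p = 0.0573) and -1.27 (adjusted p = 0.00231), and Krt19 at -0.92 (adjusted p = 0.0234), all under the fold threshold. The sphere counts of Krt18 (3457, 2821 and 2393) were high against the highest value that the molecular identifiers allow. Over the alternative settings Krt18 was at -1.85 to -1.16. Of 30 junction genes, 27 were tested, 4 were called higher and 3 lower. Cldn15, a sodium-pore claudin of the small intestine, rose from 0.695, 0 and 0 to 118, 110.1 and 91.2 CPM (ratio 355, counting interval 97.8 to 2936, adjusted p = 2.36e-05). Cdh17, the intestinal cadherin, rose from 128, 126 and 142 to 675, 545 and 541 CPM (log2 fold change 2.15, SE 0.22, adjusted p = 0.000149). Cdh1, E-cadherin, was at 739.6, 1094 and 1173 and 1224, 1131 and 892 CPM (log2 fold change 0.11, SE 0.23, adjusted p = 0.734). Epcam was at 243, 315 and 419 and 601, 766 and 546 CPM (log2 fold change 0.97, SE 0.26, adjusted p = 0.022), so both groups carried epithelial adhesion genes in every library.

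Genes of the liver moved in both directions. Of 46 hepatocyte genes, 33 were not tested; of the 13 tested, 5 were called higher and 5 lower. The urea cycle enzyme Cps1, which enterocytes also make, rose from 0, 0 and 0.509 to 790.5, 662 and 993 CPM (ratio 5483, counting interval 984 to 216600, adjusted p = 1.01e-05). Otc, of the same cycle, rose from 0, 0.54 and 2.54 to 666, 611 and 525 CPM (log2 fold change 9.27, SE 0.61, adjusted p = 2.13e-05). Ass1, the next enzyme of that cycle, fell from 76.8, 49.6 and 48.9 to 2.16, 0.487 and 1.4 CPM (log2 fold change -5.40, SE 0.49, adjusted p = 7.75e-05). Cebpa (log2 fold change 2.35, SE 0.32, adjusted p = 0.000623) and G6pc (at least 35.1-fold higher, adjusted p = 0.00253) were higher. Complement C3, a secreted protein, fell from 338, 268 and 165 to 0.541, 0.487 and 1.87 CPM (log2 fold change -7.94, SE 0.53, adjusted p = 2.13e-05). The retinol carrier Rbp4 fell from 663, 855 and 285 to 38.4, 18 and 44.9 CPM (log2 fold change -4.15, SE 0.48, adjusted p = 0.000274). Transferrin fell from 556, 614 and 716 to 52, 34.1 and 77.2 CPM (log2 fold change -3.53, SE 0.33, adjusted p = 8.05e-05). Outside the list, the copper protein Cp, ceruloplasmin, fell from 228, 267 and 114 to 0.541, 0.487 and 0 CPM (ratio 620, counting interval 171 to 5125, adjusted p = 2.3e-05). In the list, the fifth member that rose was Ttr, the thyroxine carrier, and the fifth that fell was Hpx. Enzymes and plasma proteins were thus among the calls in both directions.

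Of 19 bile duct genes, 15 were tested, 4 were called lower and 0 higher (median -1.11). Bicc1 fell from 319, 270.4 and 204 to 8.12, 8.28 and 4.68 CPM (log2 fold change -5.23, SE 0.36, adjusted p = 2.23e-05). Spp1, osteopontin, fell from 581, 701 and 602 to 52, 57 and 7.95 CPM (log2 fold change -4.01, SE 0.57, adjusted p = 0.000864), with Krt7 and Prom1 above as the others. Fat breakdown rose in part: of 28 genes, 25 were tested, 8 were called higher and 0 lower (median 1.29). The ketone enzyme Bdh1 rose from 0.347, 1.08 and 1.53 to 21.1, 20 and 12.6 CPM (log2 fold change 4.20, SE 0.55, adjusted p = 0.000501). Hadh, of mitochondrial beta-oxidation, rose from 65.7, 122 and 106 to 722, 429 and 564 CPM (log2 fold change 2.55, SE 0.31, adjusted p = 0.000367), and its partner Hadhb was at 1.29 (adjusted p = 0.0153). Cholesterol synthesis had 0 calls by edgeR or DESeq2 among 25 genes tested (median 0.29), with 8 higher and 2 lower at an unadjusted p under 0.05, Cyp51 at a log2 fold change of 0.17.

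Mucosal defence exchanged one set of proteins for another. Of 28 genes, 15 were tested, 5 were called higher and 6 lower. Reg3a, an antimicrobial lectin, was at 0 in the spheres and 436, 228 and 103 CPM in dediHep-BOs (at least 552-fold higher, adjusted p = 0.00019). Dmbt1 rose from 9.03, 13.49 and 44.3 to 815, 509 and 339.5 CPM (log2 fold change 4.66, SE 0.60, adjusted p = 0.000486). The sensor Nlrp6 rose from 6.6, 3.78 and 4.58 to 121, 178 and 251 CPM (log2 fold change 5.16, SE 0.41, adjusted p = 4.67e-05). Wfdc2, a secreted protease inhibitor, fell from 732, 929 and 288 to 0, 0 and 0.468 CPM (ratio 3964, counting interval 711 to 156600, adjusted p = 2.13e-05). The lung-type collectin Sftpd fell from 462, 389 and 381 to 1.08, 1.95 and 0 CPM (log2 fold change -8.60, SE 0.53, adjusted p = 2.13e-05). The iron-binding lipocalin Lcn2 fell from 250.1, 218 and 132 to 0, 0.974 and 0 CPM (ratio 624, counting interval 172 to 5158, adjusted p = 2.59e-05). Lactoferrin (Ltf) fell from 62.2, 52.4 and 36.6 CPM to 0 in every budding culture (at least 105-fold lower, adjusted p = 9.58e-05). Reg3b split with the Y-linked transcripts, at 24, 12.9 and 357 and 1461, 999.6 and 47.7 CPM (log2 fold change 2.67, SE 1.26, adjusted p = 0.133), and was called at 5.50 without dediHep-SO replicate 3 (adjusted p = 0.00139). Lypd8 rose from 0.695, 0.54 and 23.9 to 432, 391 and 215 CPM (log2 fold change 5.41, SE 0.99, adjusted p = 0.00336; 9.01 without dediHep-SO replicate 3). Pigr, which carries IgA across the epithelium, was high in both, at 709, 641 and 595 and 476, 658 and 481 CPM (log2 fold change -0.27, SE 0.22, adjusted p = 0.374).

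Of 30 chemokines and cytokines, 13 were tested, 7 were called lower and 2 higher (median -2.97). The neutrophil chemokine Cxcl5 fell from 839.6, 1205 and 970.4 to 0.541, 5.36 and 1.87 CPM (log2 fold change -8.54, SE 0.53, adjusted p = 2.13e-05). Cxcl1 fell from 34, 48 and 44.3 to 1.62, 2.44 and 1.4 CPM (log2 fold change -4.48, SE 0.41, adjusted p = 7.75e-05). The monocyte chemokine Ccl2 fell from 136, 204 and 303 to 2.16, 7.79 and 0.935 CPM (log2 fold change -5.85, SE 0.62, adjusted p = 0.000173). Ccl25, which draws lymphocytes to the small intestine, rose from 1.74, 2.16 and 6.11 to 248, 214 and 174 CPM (log2 fold change 6.01, SE 0.47, adjusted p = 3.84e-05). Of the class II list, Cd74 fell (ratio 70.8, counting interval 19.3 to 589.7, adjusted p = 0.000544) and the protease Ctss rose (at least 71.3-fold higher, adjusted p = 0.000544). Of 35 interferon-stimulated genes, 13 were tested and 3 called higher, Ifi27l2b from 17.7, 10.2 and 49.4 to 362, 279 and 152 CPM (log2 fold change 3.36, SE 0.56, adjusted p = 0.00205), Ifit2 (log2 fold change 3.31, SE 0.63, adjusted p = 0.00421) and Ifit1bl1 (log2 fold change 2.34, SE 0.45, adjusted p = 0.00442), while Irf1 was at -0.79 (adjusted p = 0.0645). Ifit1bl2, among the 12 genes with the smallest p that rose, went from 0.695, 0.54 and 1.53 to 251, 192 and 202 CPM (log2 fold change 7.81, SE 0.43, adjusted p = 1.98e-05). Of 15 leukocyte genes, 5 were tested: Lyz2 was called higher (at least 1699-fold higher, adjusted p = 3.62e-05), with Ptprc at most 2 counts, and Csf1r and Cd68 lower, though Cd68 not without dediHep-BO replicate 1 (-1.96, adjusted p = 0.0744).

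Most of the gastric genes tested were called lower. Of 20, 8 were tested, 5 were called lower and 1 higher. Summed CPM over the list was 402, 461 and 820 in dediHep-SOs and 250.5, 282 and 38.8 in dediHep-BOs. The called members Ctse, Vsig1 and Anxa10 also belong to the fetal and regenerating list above. The trefoil peptide Tff2 fell from 41.7, 41 and 35.6 to 0.541, 0 and 0 CPM (ratio 239.9, counting interval 42.7 to 9510, adjusted p = 6.12e-05). The protease Ctse fell from 27.1, 39.9 and 71.8 to 0, 1.46 and 0 CPM (ratio 88.1, counting interval 29.8 to 429.6, adjusted p = 0.000378). Gkn3 fell from 71.9, 59.9 and 304 to 4.33, 2.44 and 6.08 CPM (log2 fold change -5.06, SE 0.73, adjusted p = 0.000895). Without dediHep-BO replicate 2, the 1 budding culture with Ctse, its fitted log2 fold change was -9.61, a value that depends on the prior count. Vsig1 fell from 155, 199 and 194 to 28.7, 26.3 and 0.935 CPM (log2 fold change -3.30, SE 0.73, adjusted p = 0.00897). The pepsinogen Pgc, at 1.04, 1.08 and 137 and 87.7, 102 and 0.935 CPM, followed the Y-linked split and not the groups (log2 fold change 0.46, SE 1.48, adjusted p = 0.829), and was called higher at 5.87 without dediHep-SO replicate 3 (adjusted p = 0.00425).

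Cell cycle genes stayed under the fold threshold. Of 43, 42 were tested and 0 were called by edgeR or DESeq2 (median 0.59), with 17 higher and 4 lower at an unadjusted p under 0.05, and 1 was called higher without dediHep-SO replicate 3. Mki67, a marker of cycling cells, was at 249, 309.8 and 470.2 and 720.2, 758 and 738 CPM (log2 fold change 1.11, SE 0.26, adjusted p = 0.0124). Top2a was at 581, 769 and 516 and 708, 646 and 769.7 CPM (log2 fold change 0.19, SE 0.22, adjusted p = 0.538), so both transcripts were present in every library. Of 8 CDK inhibitors 5 were tested and 0 called by edgeR or DESeq2, with 1 higher and 1 lower at an unadjusted p under 0.05, Cdkn1a at a log2 fold change of -0.82 (adjusted p = 0.104) and Cdkn1b at 1.10 (adjusted p = 0.0189). Of 30 apoptosis and p53 genes, 29 were tested, 4 were called higher and 4 lower. Casp1, of the inflammasome, rose from 0, 0 and 1.02 to 116, 112 and 54.7 CPM (ratio 311, counting interval 85.7 to 2575, adjusted p = 7.75e-05). The survival gene Bcl2l1 fell from 432, 296 and 232 to 26, 35.6 and 28.5 CPM (log2 fold change -3.41, SE 0.32, adjusted p = 8.55e-05). The p53 targets Zmat3 and Phlda3 fell as well (adjusted p = 0.000378 and adjusted p = 0.000264). Of 22 antioxidant genes, 21 were tested: Nqo1 rose (ratio 108, counting interval 18.9 to 4292, adjusted p = 0.0011), and Gsta3 (log2 fold change -2.43, SE 0.40, adjusted p = 0.00205) and the cystine carrier Slc7a11 (log2 fold change -2.73, SE 0.53, adjusted p = 0.00485) fell. Of 25 oncofetal genes, 7 were tested and 1, Grb10, was called lower (log2 fold change -4.45, SE 0.93, adjusted p = 0.00679), and with 1 library left out up to 4 were called lower (2 without dediHep-SO replicate 1 or 3, 3 without dediHep-BO replicate 1 or 2, 4 without dediHep-BO replicate 3). Hmga2, a fetal chromatin protein, was at 166, 276 and 142 and 189.9, 235 and 351 CPM (log2 fold change 0.41, SE 0.33, adjusted p = 0.36).

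**Figure D4:**
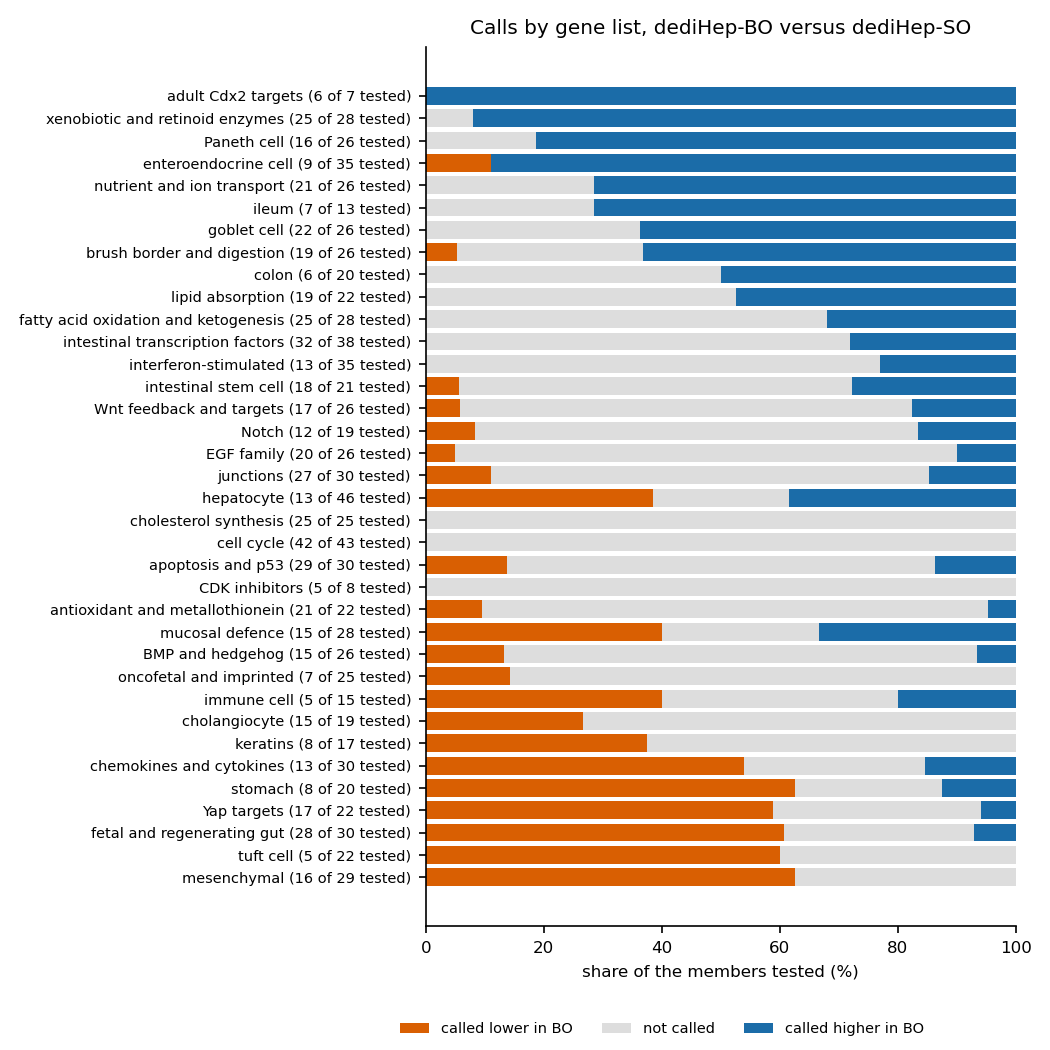
Share of each list's tested members called lower (orange), not called (grey) and called higher (blue) in dediHep-BO. Lists are ordered by the share called higher minus the share called lower, with the numbers of tested and all members beside each name. Over all genes tested 5.60% were called higher and 5.68% lower; enzyme, Paneth and transporter lists are mostly blue, and the fetal, Yap, stomach, tuft and mesenchymal lists mostly orange.

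Outside those lists, the 12 genes with the smallest p among those that rose included Aadac, a lipase-like deacetylase, at 0 in the spheres and 278, 216 and 224 CPM in dediHep-BOs (at least 531-fold higher, adjusted p = 2.13e-05). The flavin monooxygenase Fmo5 rose from 1.74, 1.62 and 1.53 to 109.8, 125 and 104 CPM (log2 fold change 6.06, SE 0.36, adjusted p = 2.13e-05). Among the losses were Stra6, the retinol-uptake receptor, from 464, 499 and 337 to 0, 0 and 0.935 CPM (ratio 1319, counting interval 365 to 10890, adjusted p = 2.13e-05). Enah, an actin regulator, fell from 179, 191 and 169.5 to 3.25, 3.9 and 0.935 CPM (log2 fold change -6.04, SE 0.44, adjusted p = 2.44e-05). C1qtnf6 fell from 148, 93.4 and 118 to 2.16, 2.92 and 2.81 CPM (log2 fold change -5.47, SE 0.38, adjusted p = 2.23e-05). All 3 spheres were high for these genes and the budding cultures were at a few CPM or less.

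The same change was then measured in gut organoids, ISC-BOs against FIPC-SOs, with no library in common with the dediHep comparison. There 771 of 11644 genes were called (6.62%), 466 higher (4.00%) and 305 lower (2.62%). Of the genes called higher, 205 were shared, 32.4% of the 633 in dediHep organoids and 44% of the 466 in gut organoids. Of those called lower, 124 were shared, 19.3% of the 642 and 40.7% of the 305. Among dediHep calls that could be tested in the gut, 499 of 598 higher and 304 of 407 lower genes had the same sign there, where 5142 of 10802 genes tested in both were positive, and 4 and 11 were called the opposite way. Across the 10802 genes, which are not independent replicates, Pearson r of the fold changes was 0.507 and Spearman rho 0.206.

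The difference between the 2 changes was tested itself, as the dediHep log2 fold change minus the gut one, and was called for 1170 of 12379 genes (9.45%), 665 larger, meaning more positive (5.37%), and 505 smaller, meaning more negative (4.08%), in dediHep organoids. Of the 633 genes called higher in dediHep-BOs, 322 also had a difference called larger, and of the 642 called lower 219 had one called smaller. The 219 include genes that rose in the gut, such as Ace. The same dediHep libraries enter both tests, so these shares are not independent of the first calls. Paneth cell genes were 5 higher and 1 lower of 23 tested in the gut, and of 24 tested for the difference 19 were called larger and 1 smaller in dediHep organoids. The count of called differences fell to 749 without dediHep-SO replicate 1 and rose to 2157 without dediHep-SO replicate 3. Ang4 was 37 ± 15.6 CPM in FIPC-SOs and 80.2 ± 28.2 CPM in ISC-BOs (SD, n = 3 and 4, all-library scale), against 0.151 ± 0.261 and 392 ± 99 CPM in the dediHep organoids (difference 9.95 on the log2 scale, adjusted p = 9.29e-06). Fetal gut spheres thus held some Ang4 where dediHep spheres held almost none. Lyz1 behaved likewise, at 335 ± 32 and 1427 ± 263 CPM in the gut and 1.06 ± 1.83 and 1602 ± 278 CPM in dediHep organoids (difference 8.55 on the log2 scale, adjusted p = 9.29e-06). Goblet genes had 2 calls of 21 in the gut and 11 of 23 larger differences in dediHep organoids, with Atoh1 at log2 fold change -0.24, adjusted p = 0.75 in the gut (difference 5.79 on the log2 scale, adjusted p = 8.06e-05). Enteroendocrine genes had 4 calls of 22 in the gut and 12 of 22 larger and 1 smaller differences. Of the 15 fibroblast genes, 5 were tested for the difference and all 5 were called larger. None of the 15 passed the filter in the dediHep or the gut comparison alone. Their summed CPM was 348, 360 and 6.55 in the dediHep-BO replicates, so these 5 calls do not describe a change shared by all budding cultures.

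Absorptive and fetal lists were called in the same direction in both lineages. Transporters had 17 of 24 called higher in the gut and 8 of 24 larger and 1 smaller in dediHep organoids, enzymes 20 of 26 and 12 of 26 larger and 1 smaller, and fat absorption 12 of 21 and 7 of 22. Cyp4f14 had a log2 fold change of 6.87 in the gut (difference 0.42 on the log2 scale, adjusted p = 0.69). Fetal and regenerating genes had 15 of 27 called lower in the gut and 0 of 29 that fell further and 4 of 29 with a more positive change in dediHep organoids, with gut log2 fold changes of Ly6a at -4.73 (difference 0.46 on the log2 scale, adjusted p = 0.695), Tubb6 at -6.08 (difference 1.54 on the log2 scale, adjusted p = 0.176) and Basp1 at -7.82 (difference 0.86 on the log2 scale, adjusted p = 0.574). Differences that miss the threshold do not show that the changes were alike.

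Several genes moved in only one lineage or in opposite directions. Pigr rose in the gut (log2 fold change 5.38, adjusted p = 9.33e-06), from 16.7 ± 6.83 CPM in FIPC-SOs to 726 ± 94.8 CPM in ISC-BOs, while dediHep-SOs were already at 589 ± 56.9 CPM and dediHep-BOs at 489 ± 81.8 CPM (difference -5.67 on the log2 scale, adjusted p = 2.68e-06). Xdh, xanthine dehydrogenase, fell from 124, 90.1 and 69.7 to 16.8, 16.1 and 6.55 CPM in dediHep organoids (log2 fold change -2.85, SE 0.41, adjusted p = 0.000948) and rose in the gut (log2 fold change 6.03, adjusted p = 0.000422; difference -8.90 on the log2 scale, adjusted p = 4.55e-05). Dclk1 rose in the gut from 1.21 ± 1.76 to 9.66 ± 1.47 CPM (log2 fold change 2.81, adjusted p = 0.0269), against its fall above (difference -7.21 on the log2 scale, adjusted p = 0.000274), and its level in dediHep-BOs (range 2.16 to 12.1 CPM) overlapped that in ISC-BOs. Ace was likewise called lower in dediHep organoids and higher in the gut (log2 fold change 2.83, adjusted p = 0.00755; difference -5.92 on the log2 scale, adjusted p = 0.000481). Arg2, a mitochondrial arginase, rose in the gut (log2 fold change 8.46, adjusted p = 9.33e-06). In dediHep organoids it was at 2.08, 3.24 and 3.56 and 5.95, 8.28 and 13.1 CPM (log2 fold change 1.64, SE 0.48, adjusted p = 0.0296; difference -6.84 on the log2 scale, adjusted p = 4.54e-05). Ascl2 had a log2 fold change of 1.66 in the gut and -0.37 in dediHep organoids (difference -2.05 on the log2 scale, adjusted p = 0.0194). Bicc1 and Rbp4, called lower in dediHep organoids, were not called in the gut, and the differences were called as well (difference -4.36 on the log2 scale, adjusted p = 0.0014, and difference -3.92 on the log2 scale, adjusted p = 0.00126).

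**Figure D5:**
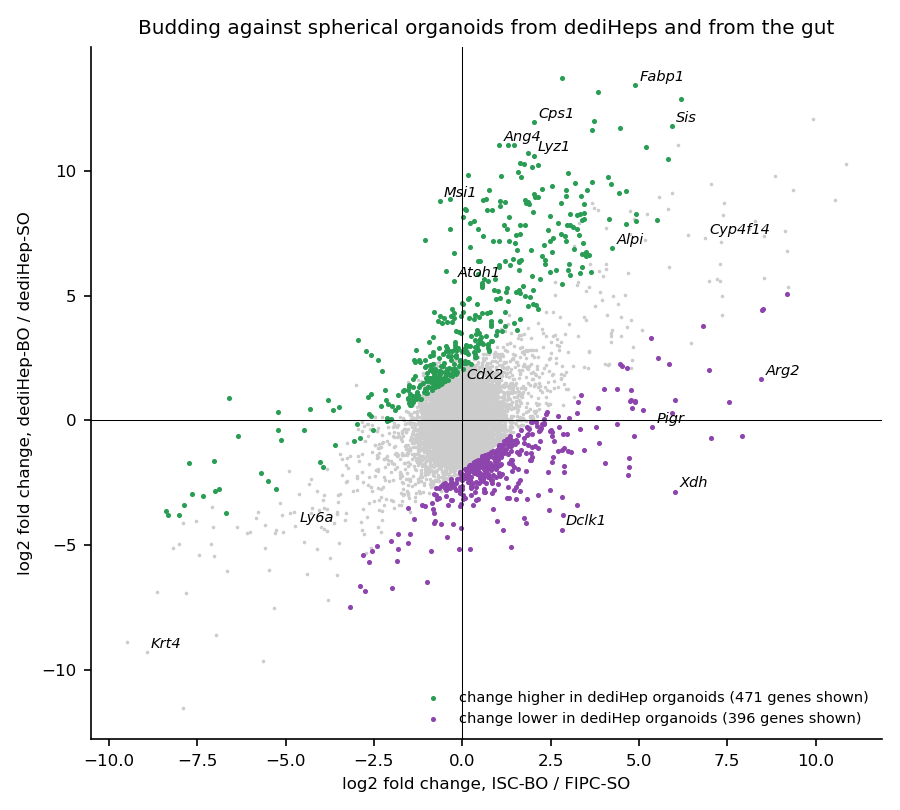
Log2 fold change of budding over spherical organoids from the gut (ISC-BO over FIPC-SO, x axis) against that from dediHeps (dediHep-BO over dediHep-SO, y axis) for 10802 genes tested in both. Green marks 471 genes whose change was called more positive and purple 396 genes whose change was called more negative in dediHep organoids; Ang4 and Lyz1 lie above and Pigr, Arg2 and Xdh below, while Ly6a, Krt4 and Cyp4f14 are grey.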

How the data were processed

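RNA was measured by CEL-Seq2, which counts unique molecular identifiers (UMIs) at transcript 3' ends. The authors deposited 1 table of UMI counts per gene for 49 libraries, not normalised, capped by the number of UMI sequences. Per the labels, the submitters' processing notes name bcl2fastq 2.20, Bowtie2 2.3.1, HTSeq 0.6.0 and GRCm38. Of 46078 identifiers, 45143 matched a gene symbol. Rows without a gene name held 0.132 to 0.167% of counts in the dediHep-SO and dediHep-BO libraries. They were kept under their identifier and passed through the same filter and tests.

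Groups came from the sample labels. Counts were tested with edgeR 4.0.16 in R 4.3.3 (quasi-likelihood F-test, TMM scaling, filterByExpr by group with minimum count 10 and minimum total 15), at adjusted p under 0.1 and log2 fold change beyond 2. The gut comparison and the difference between both comparisons used the same settings, the latter over 13 libraries. Depth was 1856644 to 2931078 counts in the 6 main libraries, where 3 counts equal 1.02 to 1.62 CPM. No pair of libraries in a group agreed within sampling noise. The tests were checked on simulated counts. Alternatives were DESeq2 1.42.0, RLE scaling, other filters and thresholds, a replicate block, a correction for UMI collisions, thinned counts, wider fits, each library left out and, added after seeing the data, a term for Y-linked transcripts.

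Genes were named by rule: the adult Cdx2 targets, those the study names for its organoids, the 12 most significant calls higher and the 12 lower, from each list up to 4 such calls per direction and the 2 best expressed members without a call, and the 8 most significant differences per direction. Members and lists were chosen with earlier results of these data known. Promoter windows were the 250 bases before RefSeq starts.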

Additional observations from a re-analysis of the deposited data

Results flagged for a closer look

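The change from spherical to budding organoids was called different between dediHep and gut organoids, by edgeR's test of the difference itself, for 70 of 238 named genes with a more positive log2 change in dediHep than in gut organoids and for 35 with a more negative one. The values here are differences of log2 fold changes, dediHep minus gut, for genes of the adult targets, genes the study names and those with the smallest p. Among secretory genes the difference was 9.95 for Ang4, 8.55 for Lyz1, 6.32 for Chga and 2.41 for Muc2. Among the adult Cdx2 targets it was 9.32 for Fabp2, 8.52 for Fabp1, 5.86 for Sis, 4.29 for Mttp, 4.22 for Mep1b and 2.62 for Alpi. For the urea cycle enzymes Cps1 and Otc it was 9.88 and 6.97. Sh3gl2 had 9.70, the factor Arid3a 7.48, Hsd17b13 7.02 and Ifit1bl2 6.61. Arid3a was too low to test in the dediHep comparison and fell in the gut (log2 fold change -4.575). On the all-library scale its mean was 30.1 CPM in FIPC-SOs and 1.26 CPM in ISC-BOs. Genes with a negative difference were Xdh at -8.90, the coagulation factor F5 at -7.48, Slc25a45 at -6.91, Arg2 at -6.84, Rassf5 at -6.64, Ly75 at -6.23, Pigr at -5.67, the desmosomal gene Pkp1 at -4.72 and Ascl2 at -2.05. The fitted values of genes without a count in a group depend on the prior count, and the source of the gut cultures differs in age, which cannot be told apart from their shape.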

How the results depend on the processing

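The 1275 calls between dediHep-BOs and dediHep-SOs became 2385 without a filter on low counts (1234 higher and 1151 lower), 843 at a minimum count of 30, 1953 in a single fit of all 49 libraries and 2970 at adjusted p under 0.05 with a log2 fold change beyond 1. RLE scaling gave 1285, DESeq2 1279, the UMI correction 1333, thinned counts 1250, a fit of 4 groups 1576, glmTreat 1426 and the Y-linked term 1195. Leaving out 1 library gave 1234 to 2108 calls, the highest without dediHep-SO replicate 3. For the difference between lineages, 1170 calls became 1758 without the filter and 749 to 2157 with 1 library left out. For the gut, 771 became 1504 without the filter and 732 to 878 with 1 library left out. The causes were not tested. Same-numbered replicates did not deviate together (r = -0.199, -0.006 and -0.209). However, dediHep-SO replicates 1 and 2 had nearly the same r with dediHep-BO replicate 1 (-0.199 and -0.202). The check therefore cannot tell which libraries, if any, were paired. With the replicate block, 1318, 1453 and 740 genes were called. Outside the block, named genes kept their side of the thresholds in 3462 fits, gained a call in 20, lost one in 17 and reversed in 0. At 1.02 to 1.62 CPM for 3 counts, the listed Hox genes, 17 of 22 tuft cell genes and many hormone genes were too low to test in the dediHep comparison.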

Other observations

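Several genes that rose in dediHep-BOs had been expressed in the hepatocytes the cultures came from. On a scale set over all 49 libraries, Fabp1 was 1772 ± 85.3 CPM in fresh hepatocytes (SD, n = 3), 24.3 ± 15.1 CPM in monolayer dediHeps (n = 5), 0 in every dediHep-SO library and 587 ± 190.4 CPM in dediHep-BOs (n = 3), against 668 ± 275 CPM in ISC-BOs (n = 4). Cps1 followed the same order, with 2025 ± 70.2 CPM in fresh hepatocytes, 7.4 ± 8.53 CPM in dediHeps, 0.151 ± 0.261 CPM in dediHep-SOs, 745 ± 164 CPM in dediHep-BOs and 868 ± 287 CPM in ISC-BOs. Among these 5 groups, both genes were lowest in the spheres, and in dediHep-BOs they were near the level of adult gut organoids. Fabp1 was also at 0 in every hepatocyte library of the latest time points of the monolayer time course.

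Pigr differed from them, since it was high in fresh hepatocytes at 1409 ± 390.4 CPM, near 0 in dediHeps at 0.425 ± 0.505 CPM and already at 589 ± 56.9 CPM in dediHep-SOs. Vim was 268 ± 165 CPM in monolayer dediHeps and 24.2 ± 19.7 CPM in dediHep-SOs. Alb, which was 4184 ± 598 CPM in fresh hepatocytes, had 0 counts in the dediHep-SO and dediHep-BO libraries. These levels are descriptions without a test, and the codes shared by dediHep-SO and monolayer dediHep labels were not used.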
